A study of Homo sapiens with 4 samples.

Results

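The collagen chain genes are the genes whose symbol is COL, a number, the letter A and a number, such as COL5A1. They were found by symbol among the genes with a probe set of their own on the array, and each gene was read by its brightest probe set. This gave 43 members of 19775 genes, and COL17A1 was the 1 gene of the 44 with such a symbol in RefSeq that is not analysed here. The cells, U87TR-Da, derive from U87MG, an established human glioblastoma line, and are labelled as without or with expression of DACH1, a nuclear factor that represses transcription. The 4 arrays held total RNA of DACH1-silenced and DACH1-induced cells, each grown in DMEM with 10% FBS (DMEMF) and in serum-free Neurobasal (NBE) to which the growth factors EGF and bFGF and the supplements B-27 and N-2 were added. Exposure to doxycycline (1 µg/mL, 72 h) is written for all 4 samples alike, so how the silenced cells were handled is not given. All values come from this 1 line, with 1 array per condition, so no condition has a replicate and precision is limited by how few arrays there are.

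Collagens are trimeric proteins of the extracellular matrix in which 3 chains, each built of a short repeated motif with glycine at a fixed place, wind into a triple helix. Fibrillar types such as I and V build fibrils, type IV builds the sheet of basement membranes, type VI forms beaded filaments, and short-chain types VIII and X form open networks. The FACIT collagens sit on fibrils, type VII anchors basement membranes, multiplexins XV and XVIII lie near basement membranes, and type XIII spans the cell membrane. Several types need chains from different genes in 1 trimer, so partner chains such as COL1A1 and COL1A2 are read together here. Normal brain holds few fibrillar collagens outside vessels and meninges, while cultured glioblastoma lines of mesenchymal character often express them.

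Promoter sequences from RefSeq (GRCh38.p14) were at hand for 31 of the 43 members. They are shown for COL5A1 and COL6A3, which differed between the media, and for some promoters of type IV chains, which lie head to head in the genome. Other members that differed are not shown. COL1A1, COL1A2, COL5A2 and COL8A1 had no sequence at hand. COL15A1 and the head-to-head pair COL4A3 and COL4A4 had one but were left out. The stretches end at the base before the annotated start, run in the direction of the named gene, and are in lower case, with matches to CCAAT (the CCAAT box) and GGGCGG (the GC box) on either strand in capitals. COL5A1, the gene of the first type V chain, starts on chromosome 9, and the stretch is chr9:134641553-134641802 on the plus strand.
COL5A1: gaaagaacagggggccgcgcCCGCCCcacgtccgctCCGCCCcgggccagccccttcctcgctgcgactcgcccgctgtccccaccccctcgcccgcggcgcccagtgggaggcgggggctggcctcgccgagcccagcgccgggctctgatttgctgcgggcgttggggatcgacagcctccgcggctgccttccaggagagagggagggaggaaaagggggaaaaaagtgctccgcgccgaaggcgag
COL6A3, which encodes the largest type VI chain, is read from the minus strand of chromosome 2, and the stretch is chr2:237414165-237414414.
COL6A3: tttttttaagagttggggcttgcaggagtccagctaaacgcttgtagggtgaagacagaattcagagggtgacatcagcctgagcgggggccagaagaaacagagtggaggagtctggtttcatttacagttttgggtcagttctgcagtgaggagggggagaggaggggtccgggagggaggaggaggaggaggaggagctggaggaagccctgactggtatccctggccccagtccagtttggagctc
COL4A1 and COL4A2 start in opposite directions 126 bases apart on chromosome 13, and the interval between the starts, chr13:110307158-110307283, is shown on the plus strand, the direction of COL4A2.
COL4A1-COL4A2 interval: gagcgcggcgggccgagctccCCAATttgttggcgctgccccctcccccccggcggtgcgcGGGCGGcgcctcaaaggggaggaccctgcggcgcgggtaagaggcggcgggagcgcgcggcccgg
COL4A5 and COL4A6 start in opposite directions on chromosome X, with 379 bases between COL4A5 and the nearest annotated COL4A6 start. The stretch before COL4A5 is chrX:108439588-108439837 on the plus strand.
COL4A5: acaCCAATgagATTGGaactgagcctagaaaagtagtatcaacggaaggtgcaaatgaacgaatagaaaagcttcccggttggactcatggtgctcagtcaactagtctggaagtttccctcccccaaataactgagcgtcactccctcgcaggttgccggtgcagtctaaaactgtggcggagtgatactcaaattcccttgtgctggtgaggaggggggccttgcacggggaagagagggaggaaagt
The COL5A1 stretch was 74% G and C and held 2 GC boxes, while that of COL6A3 was 56% G and C and held none of the motifs searched. The COL4A1-COL4A2 interval held 1 CCAAT box and 1 GC box, and the COL4A5 stretch held 2 CCAAT boxes. Over the 250 bases before all 35116 annotated starts, a CCAAT box was present in 32% and a GC box in 42.6%. In the last 126 bases the shares were 21.1% and 34.6%. The TATA box TATAAA (10.7% of all stretches of 250 bases) and the AP-1 site TGANTCA (6.57%), also searched on both strands, were in none of the 4 stretches. The motifs overlapped nowhere in them.

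DACH1, read first as a check of the labels, gave 126.0 (silenced) and 4431 (induced) in the medium labelled serum, and 32.5 and 875.1 in the other. The vimentin gene VIM and CD44 were bright on every array, while the astrocyte markers GFAP and S100B and the stem cell factor gene SOX2 lay under the floor of 10.9 on all 4. Of the other glioma markers, NES lay between 19.6 and 35.8, and OLIG2 fell 5.58-fold in the medium labelled serum-free (58.4 and 79.9, then 12.2 and 12.3, limma adjusted p 0.0170). OLIG2 entered the limma fit only through its arrays labelled serum, where it was high. The floor is the 40th percentile of all signals. Medians of all signals per array ran from 15.7 to 19.3. All 10 genes of a mitosis list rose on the arrays labelled serum-free in the limma fit described below, against 15.4% of all genes. Of 11 serum response genes in that fit, 6 rose, among them the contractile genes CNN1, TAGLN, MYL9 and ACTA2, and 3 fell, namely EGR1, FOS and SRF. FOS too entered the fit only through its arrays labelled serum (84.6 and 109.5, then 3.3 and 6.5). ACTG2, a contractile gene outside the fit, was lower (27.6 and 16.9, then 11.2 and 9.2). Of 12 cholesterol synthesis genes in that fit, 1 rose and 0 fell, against 15.4% and 12.7% of all genes, with a median log2 difference of -0.30. Whether the 2 media labels are exchanged was not tested, and the media are therefore called labelled serum and labelled serum-free.

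Expression of collagen chains was concentrated in a part of the family. Of the 43 members, 25 reached the median of all signals (17.2) on at least 1 array, 16 on all 4, and 15 reached a signal of 100 somewhere. The other 18 stayed at or below 16.7 on every array, and 8 of them were under the floor on all 4. Among the 18 were COL3A1, a fibrillar chain that often accompanies type I (10.2, 6.1, 15.4 and 4.1 on the 4 arrays), and COL2A1 and COL11A1 of cartilage. COL18A1, COL4A3, COL5A3 and COL8A2 were also in that group. Each such reading is 1 gene seen by its own probes, so brightness is compared here between arrays and not between genes.

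**Figure D1:**
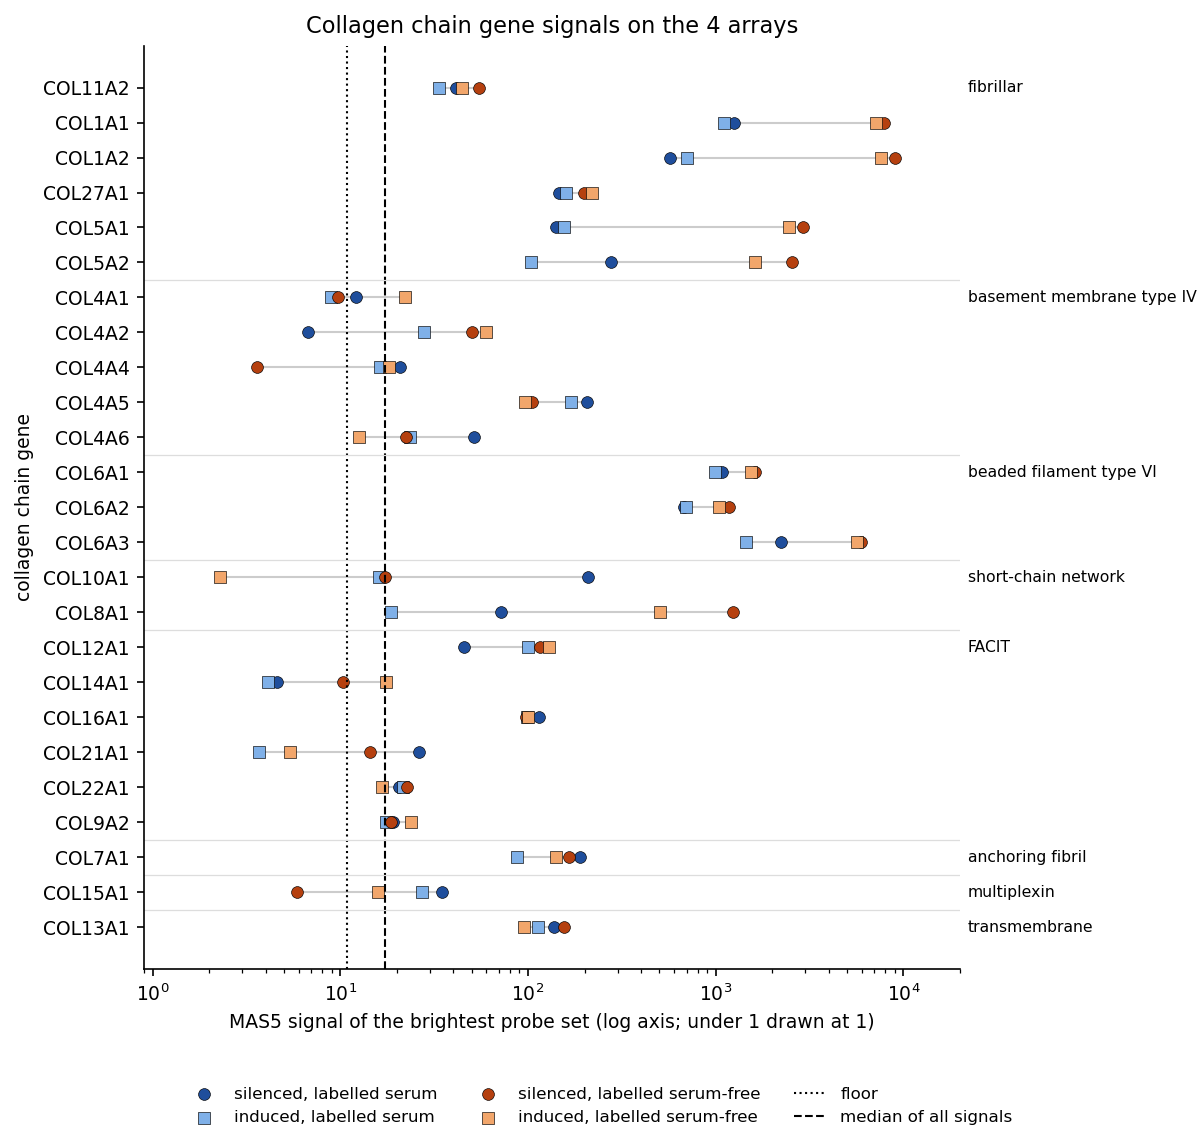
Signals of the 25 members that reached the median of all signals on an array, by collagen class, with 1 point per array on a log axis and the floor and the median as vertical lines. The serum-free points of COL1A1, COL1A2, COL5A1, COL5A2 and COL8A1 lie far to the right of the serum points, while COL10A1 stands out on 1 array, the silenced one labelled serum.

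The fibrillar chains of types I and V and the type VIII chain COL8A1 were far higher in the medium labelled serum-free, in silenced and induced cells alike. COL4A5, COL4A6 and COL15A1 were lower, but COL15A1 entered the limma fit only through its arrays labelled serum. The test was limma on log2 signals of all 4 arrays with medium and DACH1 state as terms, adjusted by Benjamini-Hochberg over 12103 genes, at a threshold of 0.05. It has 1 residual degree of freedom, taken up by how far a gene's DACH1 difference varied with the medium. Each gene's variance is moderated by those of all genes fitted, so an SE is not a spread between replicates. A p-value reflects these 4 arrays alone, since nothing says that cultures were repeated. The fit held 22 members, of which 7 rose and 3 fell, against 15.4% higher and 12.7% lower (28.1% in all) among all genes. At an unadjusted p of 0.05 in limma, 13 of 22 were below it, against 45.7% of all genes. The median log2 difference was 0.43 over these 22 members and 0.02 over all genes.

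Of the 11 fibrillar genes, 6 entered the fit, and 4 of them rose. COL1A1, the gene of the main type I chain, gave 1243.7 in silenced and 1112.4 in induced cells labelled serum, and 7866.9 and 7105.1 in those labelled serum-free. Both serum-free arrays lay above both serum arrays, and the rise was 6.36-fold (log2 2.67, SE 0.18, limma adjusted p 0.0167). COL1A2, which supplies the second chain of the type I trimer, read 571.4 and 706.6 labelled serum and 8974.8 and 7620.0 labelled serum-free. It rose 13.0-fold (log2 3.70, SE 0.22, limma adjusted p 0.0167).

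COL5A1, a chain of the minor fibrillar type V that helps to start and limit type I fibrils, read 141.2 and 154.7 labelled serum and 2920.9 and 2457.9 labelled serum-free. The rise was 18.1-fold (log2 4.18, SE 0.20, limma adjusted p 0.0167), the ninth largest of the 12103 genes. Its partner COL5A2 read 277.6 and 103.9 labelled serum and 2549.6 and 1613.1 labelled serum-free, and rose 11.9-fold (log2 3.58, SE 0.26, limma adjusted p 0.0167). The rise of COL5A2 was 9.18-fold in silenced and 15.5-fold in induced cells, and its serum arrays differed more from each other than its serum-free arrays did. COL5A3, the third type V chain, was under the floor on all arrays. COL27A1, a fibrillar chain found mostly in cartilage, read 145.8 and 158.7 labelled serum and 198.4 and 218.7 labelled serum-free, with a log2 difference of 0.45 (limma adjusted p 0.129). COL11A2, the sixth fibrillar gene in the fit, lay between 33.5 and 54.7 (limma adjusted p 0.158).

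COL8A1, whose product forms networks under endothelia, had the largest rise of the family by the brightest probe set. This was not so with the mean of all probe sets, with the second brightest, with a floor of 50 or with a pseudocount. COL8A1 read 71.7 and 18.6 labelled serum and 1241.7 and 506.3 labelled serum-free. The rise was 21.7-fold (log2 4.44, SE 0.24, limma adjusted p 0.0167), with 17.3-fold in silenced and 27.2-fold in induced cells, and it ranked 5 of 12103 genes. With the mean of all probe sets its log2 difference was 2.66, against 4.52 for COL5A1, and with the second brightest it was 3.03, against 5.32 for COL1A1. With the floor of 50 it was 3.73, against 4.18 for COL5A1, and with a pseudocount equal to the floor 4.03, against 4.08 for COL5A1. COL10A1, the other short-chain gene in the fit and known from growth cartilage, went the other way without passing the test (limma adjusted p 0.122). It read 208.8 and 16.1 labelled serum, and 17.3 and 2.3 labelled serum-free, so 1 array carried the difference. In limma it passed as lower under 2 of 10 alternatives, with no floor but a signal of 1 and with a pseudocount (adjusted p 0.0348 and 0.0362).

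The 3 type VI chains that were measured all lay higher on the arrays labelled serum-free, by unequal amounts. COL6A3 read 2221.0 and 1451.7 labelled serum and 5972.4 and 5671.6 labelled serum-free, and rose 3.24-fold (log2 1.70, SE 0.22, limma adjusted p 0.0223). COL6A1 read 1075.2 and 989.5, then 1617.6 and 1539.5, with a log2 difference of 0.61 (SE 0.18, limma adjusted p 0.0726). COL6A2 read 675.4 and 692.4, then 1169.6 and 1037.6, with 0.69 (SE 0.19, limma adjusted p 0.0626). Neither passed the threshold here. In limma COL6A2 passed under 7 of 10 alternatives and COL6A1 under 4. COL6A5 and COL6A6 were under the floor on all arrays.

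Of the 4 type IV genes in the fit, 1 rose and 2 fell. COL4A2, a chain of the common basement membrane trimer, read 6.7 and 28.0 labelled serum and 50.5 and 59.4 labelled serum-free. It rose 3.14-fold (log2 1.65, SE 0.33, limma adjusted p 0.0383), with at least 4.63-fold in silenced and 2.12-fold in induced cells. COL4A1, which starts beside it across the interval shown above, read 12.1, 8.9, 9.7 and 22.2 and reached the median on 1 array, too few for the fit. COL4A5, a chain of specialised basement membranes, read 205.1 and 169.0 labelled serum and 104.9 and 96.5 labelled serum-free, and fell 1.85-fold (log2 -0.89, SE 0.18, limma adjusted p 0.0386). COL4A6, its head-to-head neighbour and partner, read 51.8 and 23.5 and then 22.5 and 12.6, and fell 2.07-fold (log2 -1.05, SE 0.19, limma adjusted p 0.0328). For COL4A6 the induced serum array (23.5) lay next to the silenced serum-free one (22.5), so the media were barely separated. In the third head-to-head pair, COL4A4 read between 3.6 and 20.9 and did not pass (limma adjusted p 0.421), and COL4A3 stayed below the median.

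COL15A1, a multiplexin gene, read 34.7 and 27.3 labelled serum and 5.9 and 15.8 labelled serum-free, all dim. It fell 2.35-fold (log2 -1.23, SE 0.28, limma adjusted p 0.0476), with at least 3.18-fold in silenced and 1.73-fold in induced cells. COL15A1 entered the fit only through the 2 arrays labelled serum, where it was high, so the filter favoured a lower call. Of the FACIT genes, COL12A1 read 45.4 and 99.5 labelled serum and 115.9 and 128.7 labelled serum-free, with a log2 difference of 0.86 (SE 0.30, limma adjusted p 0.107). COL16A1, another FACIT gene, was level at 114.4, 98.4, 98.0 and 99.5 (limma adjusted p 0.704). COL13A1, the only transmembrane collagen gene in the fit, read 137.2 and 113.5, then 155.0 and 95.0 (limma adjusted p 0.898). COL7A1, which encodes the anchoring fibril chain, read 190.2 and 87.6, then 165.4 and 141.1 (limma adjusted p 0.554). For COL13A1 and COL7A1 the 2 media overlapped. COL9A2 and COL22A1, 2 further FACIT genes in the fit, stayed between 16.6 and 23.8.

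**Figure D2:**
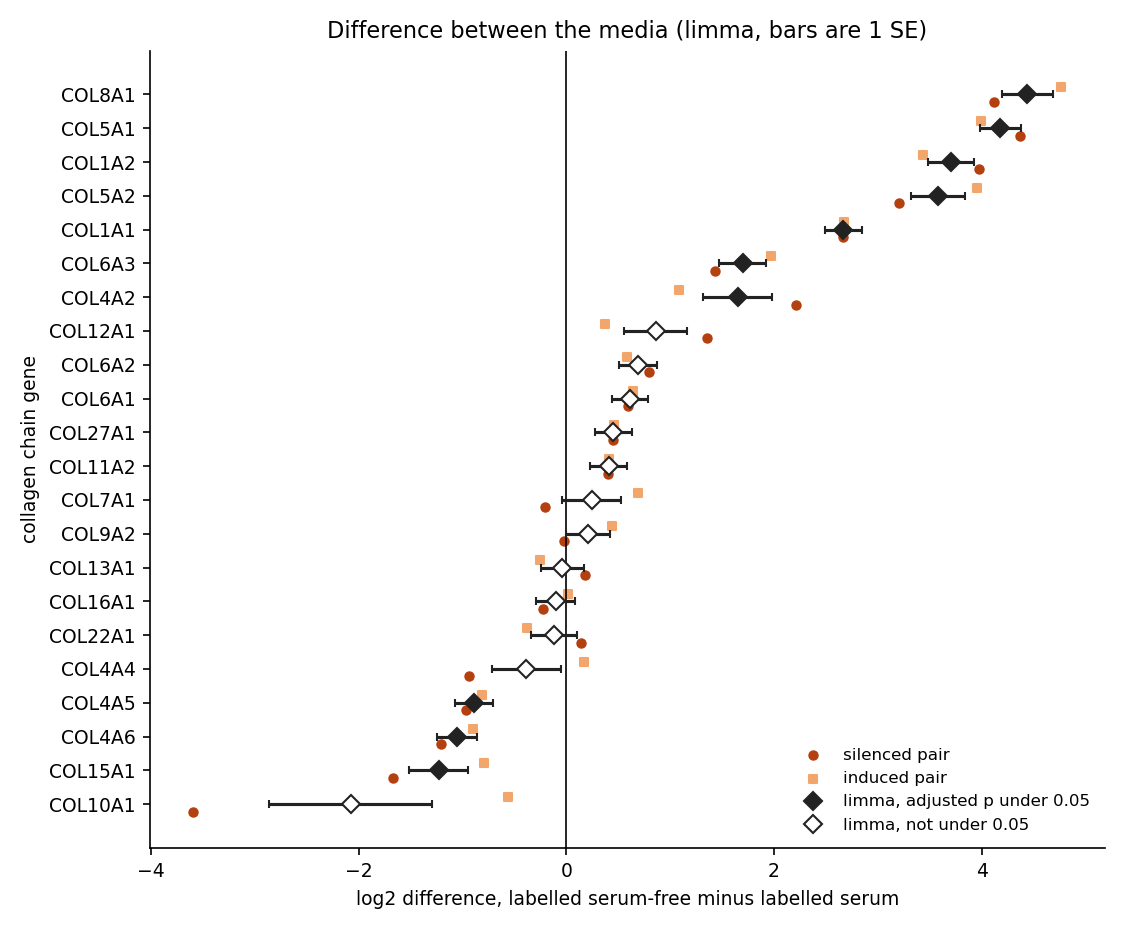
Log2 difference between arrays labelled serum-free and labelled serum for the 22 members in the limma fit, with 1 SE, and the same difference in the silenced pair and the induced pair. Filled diamonds passed an adjusted p of 0.05: 7 lie to the right, led by COL8A1 at 4.44, and 3 to the left, from COL4A5 at -0.89 to COL15A1 at -1.23.

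Counted at 2-fold in single pairs, without a test, 8 of 23 members were higher and 3 lower in silenced cells, against 15.3% and 12.2% of all genes (27.5% in all). In induced cells 8 of 23 were higher and 0 lower, against 14% and 10.1% of all genes (24.1% in all). With quantile normalization the induced pair gave 7 higher and 1 lower. The 3 that were 2-fold lower in the silenced pair were COL10A1, COL15A1 and COL4A6.

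The size of a rise depended on the probe set. COL1A1 was 6.36-fold higher by its brightest probe set, but its 3 other probe sets at the median signal on 2 or more arrays gave 15.1-fold to 39.8-fold. The next brightest of them read 180.8 and 150.8 labelled serum and 7481.3 and 5785.1 labelled serum-free. The 2 other COL1A2 probe sets gave 4.89-fold and 21.7-fold, and those of COL5A1 19.3-fold and 34.8-fold. For COL5A2 the other probe set gave 11.6-fold, for COL8A1 8.18-fold and for COL4A2 2.25-fold. All 10 such probe sets of the 10 called genes had the direction of the brightest one. COL15A1, COL4A5, COL4A6 and COL6A3 had no second probe set at that level. All COL1A1 probe sets have names ending in _s_at or _x_at, which marks probes that can match more than 1 transcript.

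**Figure D3:**
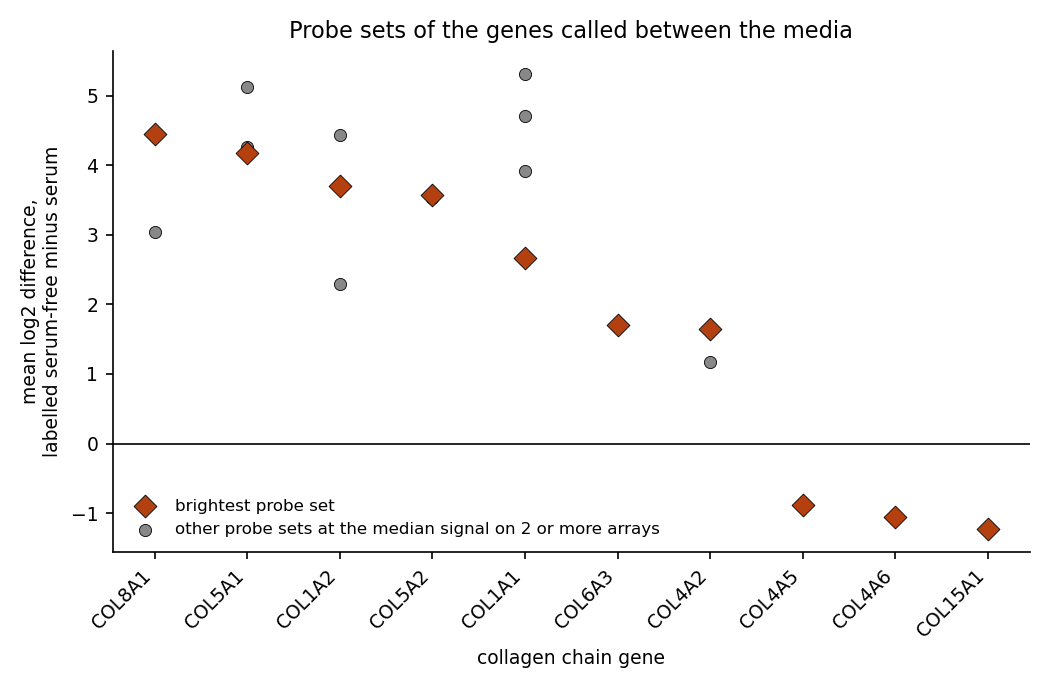
Mean log2 difference between the media for each probe set of the 10 called genes, with the brightest probe set as a diamond. COL1A1 spans 2.67 by the brightest probe set to 5.32 by another, and no probe set shown changes the direction of its gene.

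By their brightest probe sets, COL1A1, COL1A2 and COL5A1 differed by 1.24-fold or less between DACH1 states in either medium. COL8A1, COL5A2 and COL4A6 were among the members lower with DACH1 in both. In the limma fit 0 of 22 members passed as different between DACH1 states, as did 0% of all genes. At an unadjusted p of 0.05, 3 members were below it, against 4.83% of all genes: COL8A1 (log2 -1.62, SE 0.24), COL4A6 (-0.99, SE 0.19) and COL5A2 (-1.04, SE 0.26), each at a limma adjusted p of 0.931. Genes picked this way lie in 1 direction in both media by construction.

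In the pair labelled serum, 2 of 23 members were at least 2-fold higher with DACH1 induced and 6 lower, against 2.91% and 4.77% of all genes (7.68% in all). This pair has 1 array on each side and no test. COL10A1 was 13.0-fold lower (208.8 and 16.1), and its other probe set read 213.9 and 5.9, at least 19.6-fold lower. COL8A1 was 3.85-fold lower (71.7 and 18.6) and COL5A2 2.67-fold lower (277.6 and 103.9), with 3.17-fold by the second COL5A2 probe set. The second COL8A1 probe set read 16.6 and 8.8, both under the median of all signals. COL7A1 was 2.17-fold lower (190.2 and 87.6), with 2.78-fold by its other probe set. COL4A6 was 2.20-fold lower (51.8 and 23.5), and COL21A1, a dim FACIT gene, at least 2.41-fold lower (26.3 and 3.7). The second COL4A6 probe set read 17.4 and 14.0, only 1.24-fold lower. Higher were COL12A1, 2.19-fold (45.4 and 99.5), and COL4A2, at least 2.57-fold (6.7 and 28.0). The COL4A2 value rests on 1 probe set, since the other read 15.9 and 1.2, lower with DACH1 and both under the median of all signals. The second brightest COL12A1 probe set read 14.0 and 47.5, while 2 further ones that reached the median on all arrays gave 23.3 and 32.4, and 22.4 and 18.5. COL6A3 was 1.53-fold lower with DACH1 (2221.0 and 1451.7), under the 2-fold mark.

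In the pair labelled serum-free, 1 of 23 members was at least 2-fold higher with DACH1 and 1 lower, against 1.02% and 2.72% of all genes (3.74% in all). With quantile normalization the counts over all genes were 154 higher and 214 lower in place of 129 and 344, and the number of members stayed at 2. COL8A1 was 2.45-fold lower (1241.7 and 506.3), with 2.24-fold by its second probe set. COL4A1 was the higher 1, at least 2.04-fold (9.7 and 22.2), close to the floor. COL5A2 was 1.58-fold lower (2549.6 and 1613.1), COL13A1 1.63-fold lower (155.0 and 95.0) and COL4A6 1.79-fold lower (22.5 and 12.6). COL7A1 was 1.17-fold lower and COL12A1 1.11-fold higher in this pair.

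The type I chains and COL5A1 were read in the same pairs. COL1A1 was 1.12-fold lower labelled serum and 1.11-fold lower labelled serum-free. COL1A2 was 1.24-fold higher and 1.18-fold lower, and COL5A1 1.10-fold higher and 1.19-fold lower. Other probe sets gave other sizes or directions in the pair labelled serum. One COL1A2 probe set read 260.0 and 165.2, 1.57-fold lower with DACH1, and one of COL1A1 read 31.7 and 21.1, also lower. The 2 others of COL5A1 gave 1.31-fold higher and 1.04-fold lower. By the brightest probe sets the type V partners had unlike values in that pair, with COL5A2 2.67-fold lower and COL5A1 1.10-fold higher. COL6A1 and COL6A2 differed by 1.13-fold or less in either medium.

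**Figure D4:**
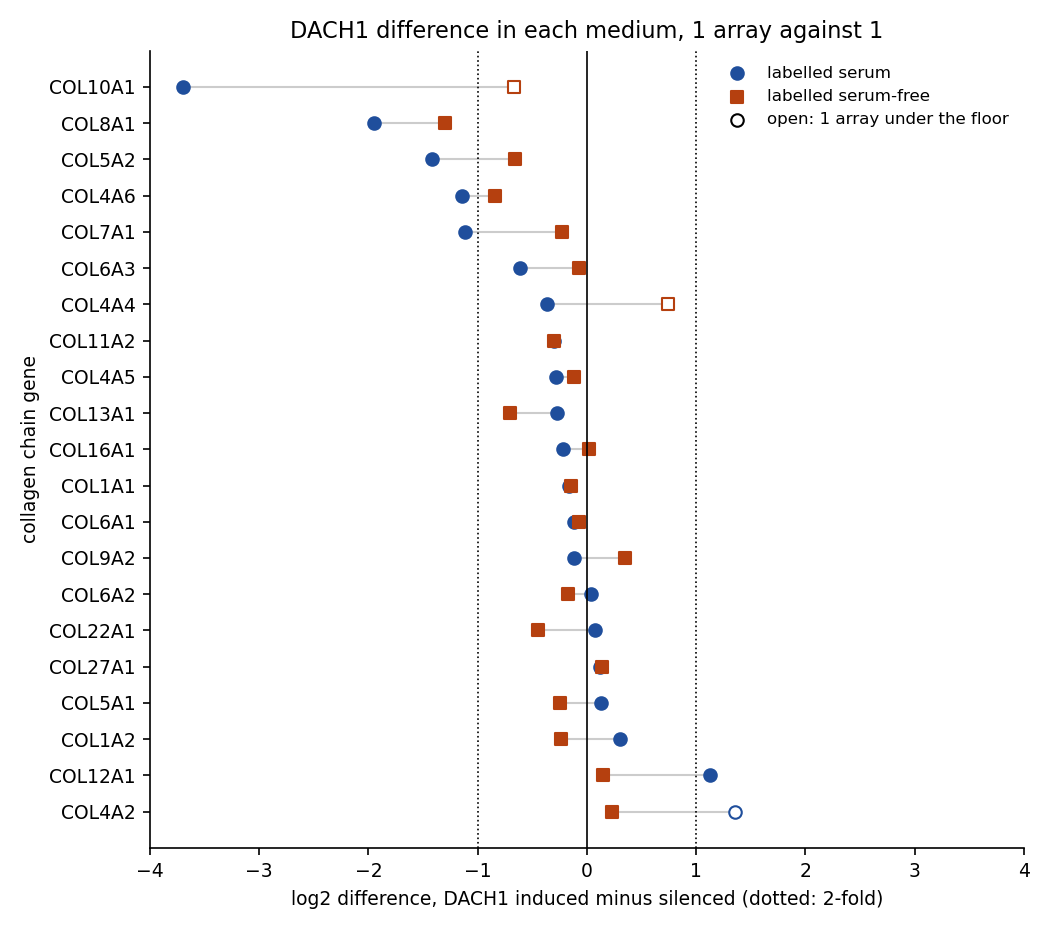
Log2 difference between DACH1-induced and silenced cells for the 21 members compared in both media, with 1 point per medium and dotted lines at 2-fold. COL8A1 lies beyond the left line in both media, at -1.95 and -1.29, while COL10A1 lies at -3.70 labelled serum and has a value bounded by the floor labelled serum-free.

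How far the DACH1 difference varied with the medium has no error estimate, since no array is left for one. In the limma fit this same variation is the residual. The log2 difference of the 2 DACH1 differences was at least 1 in either direction for 3 of 22 members (2 higher and 1 lower), against 10.2% of all genes (5.4% higher and 4.76% lower). These were COL10A1 (3.03), COL4A4 (1.11) and COL4A2 (-1.13), and each had at least 1 array under the floor. With quantile normalization there were 2 such members in each direction in place of 2 and 1. COL12A1 (-0.98), COL7A1 (0.89) and COL5A2 (0.76) were the next among members above a signal of 100. For COL10A1 the DACH1 and the medium comparison share the silenced serum array, and both large values come from its signal of 208.8 there. The other 3 COL10A1 readings were 16.1, 17.3 and 2.3.

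Genes that modify and crosslink collagen chains mostly rose on the arrays labelled serum-free in the same limma fit, while those of chaperones and export were mixed. Over all genes in that fit, 15.4% rose and 12.7% fell. All 12 measured genes of chain hydroxylation and glycosylation rose, with a list median of 1.70. The lysyl hydroxylase gene PLOD2 rose 6.09-fold and the prolyl 3-hydroxylase genes P3H3 and P3H2 5.01-fold and 4.12-fold, each with P3H4 (4.42-fold) at a limma adjusted p of 0.0231 or less. Of 9 genes of chaperones and export, 4 rose and 0 fell. SERPINH1, the collagen chaperone HSP47, rose 5.83-fold (limma adjusted p 0.0170), TRAM2 3.54-fold, FKBP10 3.10-fold and PPIB 1.68-fold. Of the 5 that did not pass, MIA2 (log2 -1.09, limma adjusted p 0.0577), MIA3 (-0.50) and FKBP14 (-0.19) lay lower. Of 8 genes of propeptide processing, 3 were in the fit and all 3 rose, namely the procollagen C-proteinase gene BMP1 (6.05-fold), its enhancer genes PCOLCE2 (4.05-fold) and PCOLCE (3.58-fold). Outside the fit, ADAMTS14 was at least 2.92-fold lower in the induced pair (31.8 and 1.3), and ADAMTS2 read 20.7 and 13.7 there.

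Of the 5 lysyl oxidase genes, 4 rose, against 15.4% of all genes, and LOXL4 did not pass (limma adjusted p 0.0911). LOXL3 rose 10.8-fold, LOX 9.73-fold, LOXL1 7.33-fold and LOXL2 6.22-fold. Lists further from the making of the chain were mixed, where 15.4% of all genes rose and 12.7% fell. Of 4 measured fibril-associated proteoglycan genes, LUM rose 2.83-fold and DCN fell 11.1-fold, from 1349.2 and 485.3 labelled serum to 72.5 and 73.7 (limma adjusted p 0.0203). Of 7 receptor genes, MRC2 (1.97-fold) and ITGA11 (1.79-fold, at most 27.1 on any array) rose and the integrin gene ITGA2 fell 3.52-fold. ITGA11 entered the fit only through its arrays labelled serum-free, where it was high. Of 7 genes of collagen-degrading proteases, the gelatinase gene MMP2 rose 2.21-fold and the collagenase gene MMP1 fell 63.9-fold. With DACH1 state as the term, 0 genes of these 7 lists passed in limma, as did 0% of all genes.

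**Figure D5:**
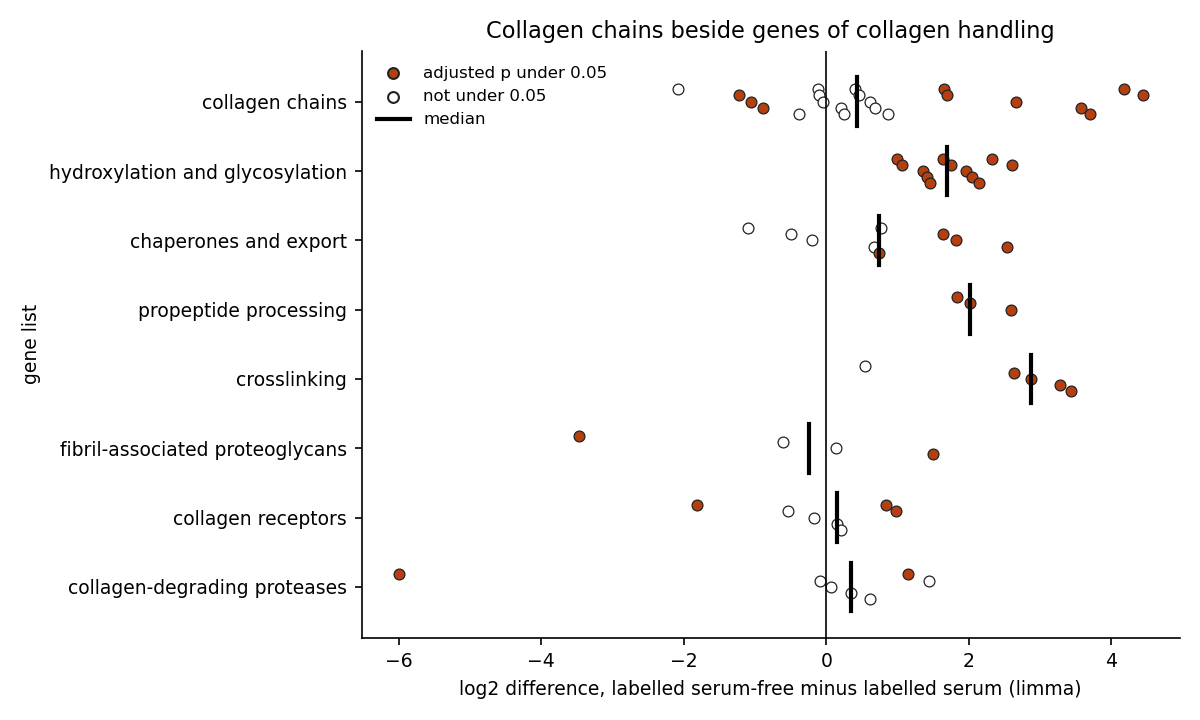
Limma log2 difference between the media for collagen chains and for 7 lists of genes that handle collagen, with filled points at an adjusted p under 0.05 and a bar at each median. All points of the lists of hydroxylation, propeptide processing and crosslinking lie to the right of 0, at medians of 1.70, 2.02 and 2.87, while collagen chains spread from -2.08 to 4.44.

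Markers of other cell types were read beside these values. The summed signal of 6 fibroblast and pericyte markers was 3218.3 and 1218.9 labelled serum and 3176.5 and 2770.2 labelled serum-free, lowest on the induced serum array. In the pair labelled serum, 4 of the 6 were at least 2-fold lower with DACH1, against 4.77% of all genes. THY1 (15.8 and 25.0) and PDGFRB (31.6 and 40.2) were higher with DACH1 there. The sum covers unlike members: between the media RGS5 fell 5.07-fold (limma adjusted p 0.0308) and DCN fell 11.1-fold, while LUM rose 2.83-fold. No marker of this list was under the floor on all arrays, and its part in the collagen differences between the media and in the DACH1 differences of COL5A2 and COL8A1 was not tested. Of 2 haematopoietic markers the sums ran from 3.6 to 14.7, with CD14 under the floor throughout. Sums of 4 endothelial markers ran from 68.7 to 164.6 with VWF under the floor, and KDR of that list fell 3.87-fold between the media (limma adjusted p 0.0282). The sums of 4 epithelial markers ran from 45.5 to 73.2 with CDH1 under the floor. In bulk RNA a change in the share of cells that express a collagen and a change in RNA per cell cannot be told apart.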

How the data were processed

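Total RNA (6 µg a sample) was hybridised to 4 arrays, 1 per condition. Each deposited value is the linear signal intensity of 1 probe set, computed by the authors, and the submitters' processing notes name MAS5 as the tool. The sources used here give neither its version nor its target. Means trimmed by 2% were 99.6 on every array. MAS5 subtracts mismatch signal, so dim values are noisy on the log scale.

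Of 54613 probe sets, 41091 had 1 gene in the platform annotation, with symbols updated through RefSeq for 99.9%. The brightest probe set by mean log2 signal stood for a gene. Signals under the floor were set to it, and a fold against the floor is written "at least". A pair of arrays was compared where 1 reached the median of all signals, and the limma fit took genes with 2 of 4 arrays there. It was tested on simulated data. The simulation gave every gene the same spread and applied no floor, so it does not cover dim genes. Members with a signal of 100 or a call are given on every array, others by range. From pathway lists, up to 4 called genes with the largest differences are named, and COL1A1 probe sets were singled out after their values were seen. Members and lists were chosen with earlier results of these data known. The alternatives concerned scaling, floor, pseudocount, filter, probe set, variance prior and left-out arrays. Fits used limma 3.58.1 in R 4.3.3, and plots used matplotlib 3.10.9 in Python 3.11.15.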

Additional observations from a re-analysis of the deposited data

How the results depend on the processing

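The 10 members called by limma between the media became 7 to 11 under the alternatives that kept a filter, and 0 with no filter, where 12 of 43 members had an unadjusted p under 0.05 in limma and 0 of all 19775 genes passed. COL1A2, COL5A1, COL5A2, COL6A3 and COL8A1 were called under 9 of 10 alternatives, and COL1A1 under 8, having no probe set without _s_at or _x_at. COL4A6 was called under 3, COL15A1 under 4, COL4A5 under 5 and COL4A2 under 6, so these calls depend on the settings. A gene left out of the fit under an alternative counts here as not called. Each of these genes was left out under some, COL4A6 for example with a floor of 50 and with every array at the median. COL15A1, COL4A2 and COL4A6 are dim, while COL4A5 is above the median on every array. The medium values of the 10 called genes and the DACH1 values of 2-fold or more kept their direction wherever an alternative gave a value. The smaller DACH1 values, such as those of COL1A2, were compared between probe sets only, and there COL1A2 and COL5A1 changed direction. Between single probe sets the 2-fold values of COL4A2 and COL12A1 in the pair labelled serum changed direction too. The 8 members 2-fold different with DACH1 labelled serum became 3 with a floor of 50 and a signal of 100, 5 with every array at the median, 4 with the mean of all probe sets and 5 with the second brightest. The 2 members labelled serum-free became 4 with no floor but a signal of 1, and 1 with a floor of 50, with every array at the median, with the mean of probe sets and with the second brightest. The 3 members whose DACH1 difference varied with the medium became 0 with a floor of 50, 0 with every array at the median and 1 with the mean of probe sets. Leaving out an array leaves no test, and its value is the remaining pair's, given in the report. No paired analysis was possible because each condition has 1 array and the labels give no replicate numbers. Signal near background limits COL4A1, COL4A2, COL4A4, COL15A1 and COL21A1.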
